A study of Rattus norvegicus with 30 samples.

Results

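The comparison was between left ventricles of sucrose-fed rats perfused outside the body with a mannitol buffer and left ventricles of sucrose-fed rats that were never perfused. The members were the arrays whose titles name these states: 5 mannitol-perfused and 5 non-perfused left ventricles, 10 of the 30 arrays in the series. All animals were male Sprague Dawley rats of 16 to 18 weeks, and both groups had eaten a high-sucrose diet (Research Diets D11725) for 8 to 10 weeks. The labels give the diet as a means of inducing insulin resistance. Every rat was anaesthetised with chloral hydrate (500 mg/kg), and every heart was cut out into ice-cold Krebs-Henseleit buffer, a salt solution. The mannitol-perfused hearts then pumped against a load (working mode) for 60 min under normoxic and normothermic conditions, at a filling pressure of 15 cm H2O and an afterload of 100 cm H2O. Their buffer held mannitol (25 mmol/L), a sugar alcohol that stood in for glucose as the osmotic control. The fuels supplied were a pair of ketone bodies, DL-beta-hydroxybutyric acid (10 mmol/L) with acetoacetate (1 mmol/L), and a short-chain fatty acid, propionate (2 mmol/L); the calcium content was 2.5 mmol/L. The non-perfused hearts were dissected and frozen at once. The perfused hearts thus differ from them in time since excision, warm beating, buffer in place of blood, and the substrates supplied, and these cannot be told apart here. Further groups were used at the end: sucrose hearts perfused with 25 mmol/L glucose in place of mannitol (5 arrays), and mannitol-perfused and non-perfused hearts of rats fed a rodent chow (5 arrays each).

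Immediate-early genes such as those of the Fos, Egr and Nr4a families are induced within minutes of a stimulus, without new protein synthesis, by factors already present in the cell. Their products are mostly transcription factors, and many are switched off again by proteins that the same stimulus induces: phosphatases that silence MAP kinases, inhibitors of NF-kappaB, and proteins that destabilise short-lived mRNAs. Hearts draw energy from fatty acids, ketone bodies, lactate and glucose, and insulin resistance is known to shift this choice towards fat. An isolated heart perfused with salt buffer is washed free of blood.

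Levels are given as log2 signal relative to each array's 75th percentile, so a level of 0 is the brightness of that percentile and 1 unit is a doubling of signal. Testing needed a signal well above background on 4 or more arrays of some group of 5, and 18333 of 26785 genes met this. A gene was called where limma's p-value, adjusted over all tested genes, was under 0.05. The share of probes well above background ran from 50.9 to 73.2% on the mannitol arrays and from 51 to 73.5% on the non-perfused arrays. The spread of the negative control spots stood out, above 8 intensity units, on mannitol replicate 5 (8.62) and on non-perfused replicates 1 (10.6) and 5 (8.07). Some counts are therefore also given without the 4 noisy arrays, these 3 and 1 chow array. Heart muscle was the tissue by its markers: all 18 cardiomyocyte markers on the array were above background on most arrays of both groups. Their summed level was 12.15 to 12.65 in mannitol-perfused hearts and 12.63 to 12.81 in non-perfused hearts. Mannitol replicate 1 was alone on its slide, in row 1, and the other 4 mannitol arrays were in row 2 of slides that they shared with non-perfused arrays, which were all in row 1. The labels number the samples as replicates without saying that each came from its own animal, so p-values measure the spread between these samples, and 5 arrays a group limit the precision of each value.

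Of 18333 tested genes 2054 were called (11.2%), with 1014 genes higher (5.53%) and 1040 lower (5.67%) in mannitol-perfused than in non-perfused sucrose hearts. The counts of each gene list below are to be read beside these shares. The rises were the larger changes: 278 genes (1.52%) were at least 2-fold higher, against 61 (0.333%) at least 2-fold lower. The median called rise was 0.67 on the log2 scale and the median called fall was -0.37, beside a median of -0.04 over all tested genes. The highest rises were in immediate-early transcription factors, CXC chemokines, the stress cytokine Gdf15 and vascular activation genes, and the deepest falls were in globins, the heme enzyme Alas2 and neuropeptide Y. The 5 and 5 arrays did not overlap for 1384 of the called genes (67.4%), against 9.23% of all tested genes. In the sucrose hearts other than mannitol replicate 1, the row on the slide and perfusion cannot be told apart. Chow hearts of both states, given at the end, were all in row 1. The mannitol array minus the non-perfused array or arrays of the same slide had 1 sign on all 4 shared slides in 1952 of the called genes (95%), against 31.9% of all tested genes; the same arrays made the calls. The count and its split moved with the scaling: the authors' deposited values gave 412 called genes, of which 89.1% were higher, against 49.4% in the values used here. Without the 4 noisy arrays (1 of them a chow array that enters only the shared estimate of variance) 1270 genes were called, 694 higher and 576 lower.

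**Figure D1:**
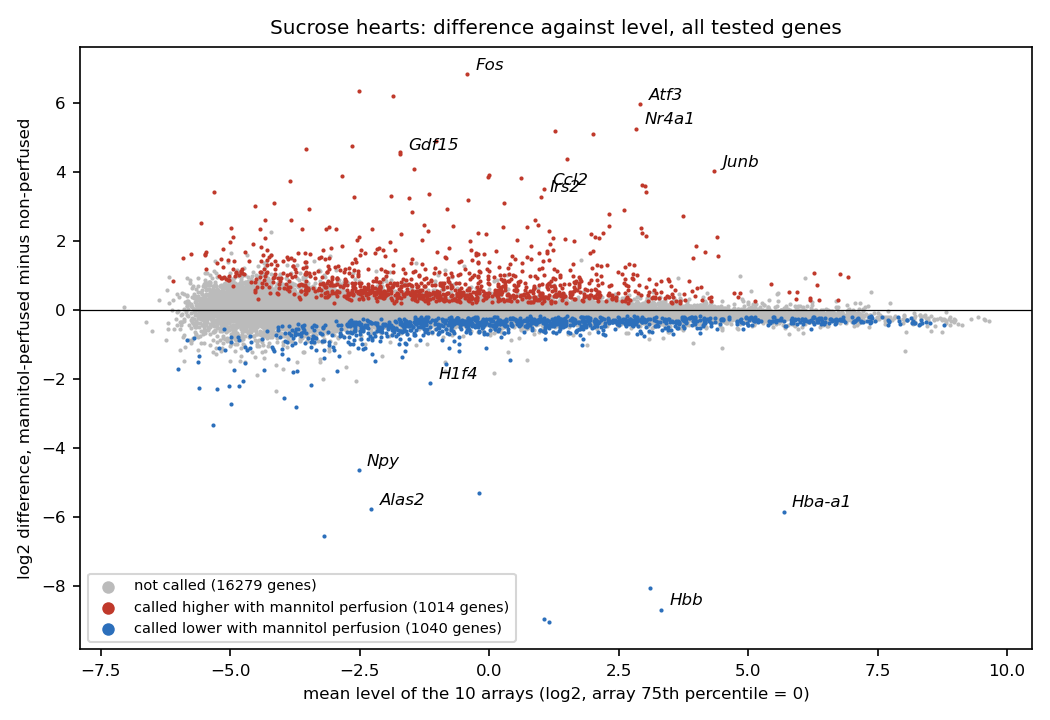
Each point is 1 of the 18333 tested genes, placed by its mean level over the 10 arrays of sucrose hearts (x axis, log2) and its log2 difference, mannitol-perfused minus non-perfused (y axis). Red points were called higher (1014 genes), blue points lower (1040 genes) and grey points were not called, and the blue points of highest level lie close to the zero line.

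Of 30 tested immediate-early genes, 27 rose and none fell, with a median log2 difference of 2.37 and a range from -0.24 to 6.83. Fos, a leucine-zipper component of AP-1, had levels of 3.09, 3.24, 3.05, 2.95 and 2.61 in the mannitol-perfused hearts, against -1.74, -5.33, -4.12, -2.5 and -5.52 in the non-perfused hearts, a 114-fold rise (log2 difference 6.83, SE 0.67, adjusted p = 3.31e-08). Every mannitol-perfused heart lay more than 4 log2 units above the highest non-perfused heart, and among the non-perfused hearts replicates 1 and 4 stood highest. Atf3, a stress-induced member of the ATF family that mostly represses, was at 6.42, 6.08, 5.99, 5.65 and 5.38 in mannitol-perfused hearts and at 0.73, -0.63, -1.03, 1.31 and -0.68 in non-perfused hearts (62.1-fold, log2 difference 5.96, SE 0.4, adjusted p = 2.48e-11). The orphan nuclear receptor Nr4a1 was at 5.43, 5.57, 5.54, 5.57 and 5.19 with mannitol perfusion and at 1.67, -0.55, -0.73, 1.13 and -0.54 without perfusion (38.4-fold, log2 difference 5.26, SE 0.41, adjusted p = 4.47e-10). Egr1, a zinc finger factor, was at 3.78, 3.87, 3.89, 3.97 and 3.88, against -0.33, -1.85, -1.82, -0.4 and -2.21 in the non-perfused hearts (36.8-fold, log2 difference 5.2, SE 0.4, adjusted p = 3.32e-10). The 5 perfused hearts were nearly equal for Egr1. As with Fos, the non-perfused hearts of replicates 1 and 4 had the highest levels of Atf3, Nr4a1 and Egr1, and no group overlapped the other.

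Further factors of the list rose as well. Nr4a3 rose 73.9-fold, Egr2 27-fold, Nr4a2 20.8-fold and the AP-1 subunit Junb 16.5-fold, with log2 differences of 6.21 (SE 0.56), 4.75 (SE 0.42), 4.38 (SE 0.31) and 4.04 (SE 0.31). Nr4a3 was above background on only 2 non-perfused arrays, and its non-perfused replicate 4 stood at -2.03 while the others lay between -6.08 and -5.41. Over the alternative settings the log2 difference of Nr4a3 ran from 4.19 to 6.94, and its call was kept. Csrnp1, a nuclear protein first described as induced by axin, had the smallest p-value of all called genes with a symbol. Its levels were 1.79, 1.83, 1.89, 2.06 and 1.62 with mannitol perfusion and -0.79, -1.56, -1.37, -1.26 and -1.38 without (log2 difference 3.11, SE 0.14, adjusted p = 3.52e-14). The perfused hearts formed a tight group well apart from the non-perfused hearts, of which replicate 1 was the highest. Egr4, chosen after its values were seen, was not well above background on any non-perfused array, and its rise is therefore a lower bound, at least 4.43-fold (adjusted p = 0.00101). The 3 members that were not called were Srf, the serum response factor that drives many of these genes (0.29, adjusted p = 0.0695), Fosb (-0.24, adjusted p = 0.643) and Egr3 (0.42, adjusted p = 0.362). Fosb had the only negative difference of the 30. Its levels ran from -0.34 to 1.25 in mannitol-perfused hearts and from 0.53 to 1.26 in non-perfused hearts.

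**Figure D2:**
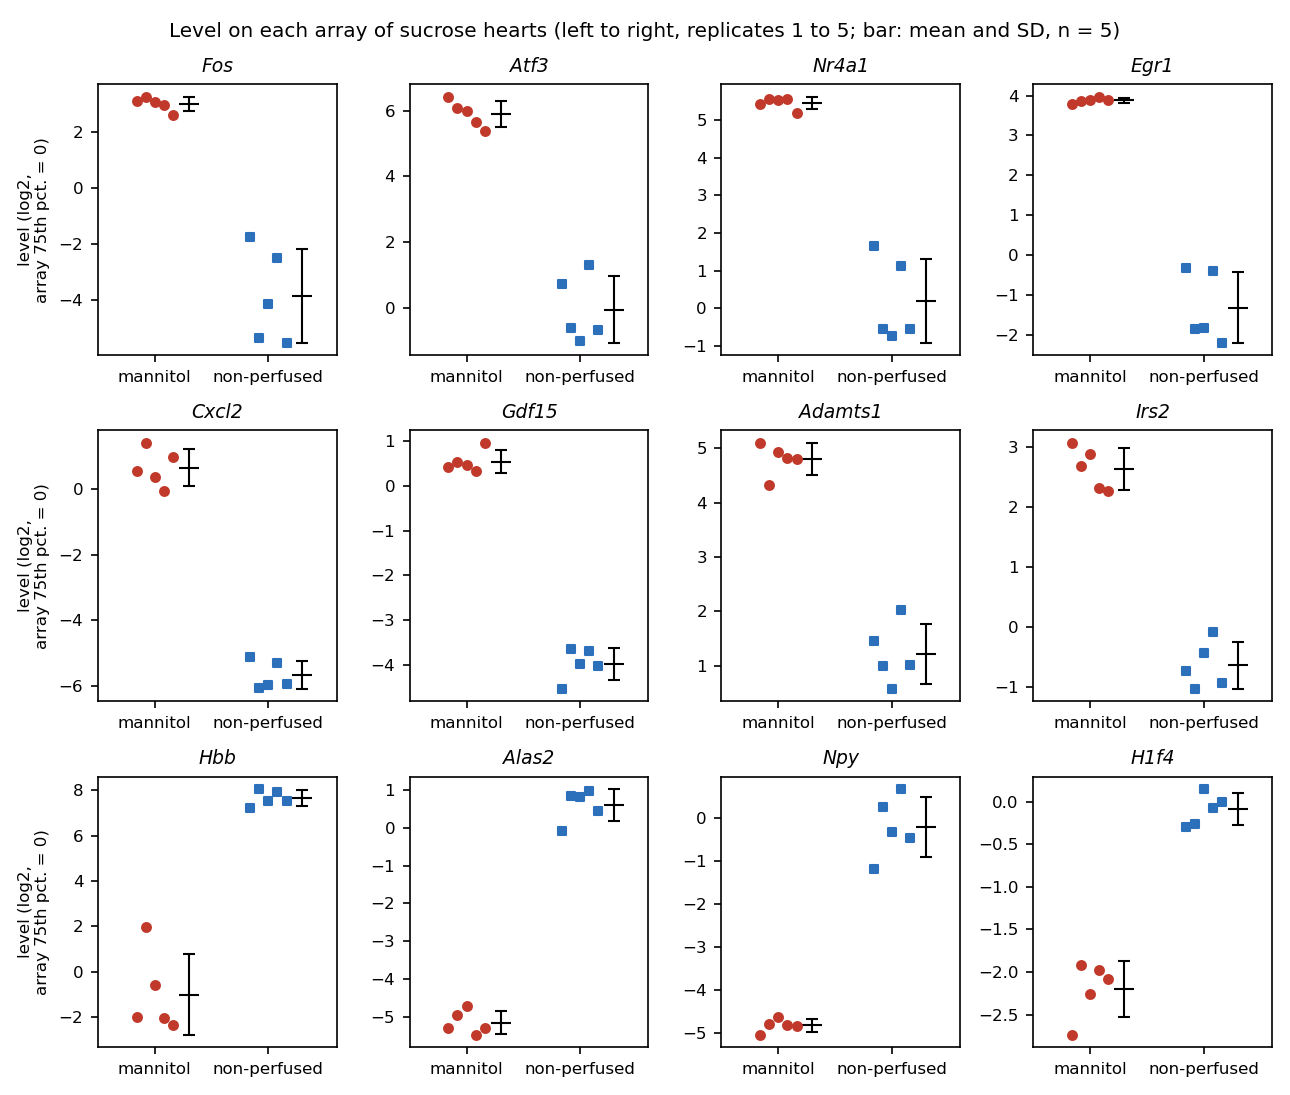
Level of 12 genes (y axes, log2 relative to the array's 75th percentile) on each of the 5 mannitol (red circles) and 5 non-perfused (blue squares) arrays of sucrose hearts, in replicate order from left to right within a group, with the mean and SD beside them (n = 5). The groups do not overlap for any of the 12 genes, the non-perfused replicates 1 and 4 are the highest for Fos, Nr4a1 and Egr1, and mannitol replicate 2 is the highest perfused heart for Hbb.

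Promoter sequences of 12 of the 15 genes with the highest rises were in the RefSeq table (build GRCr8), and 6 of these held a CArG box, to which serum response factor binds, or an NF-kappaB site within 120 bases before the start of transcription. They are shown 5′ to 3′ on the gene's strand because they set the regulatory letters beside the genes that changed most, with the CArG boxes of Egr1, Egr2 and Zfp36 and the NF-kappaB sites of Cxcl2, Cxcl1 and Nr4a1 in capitals.
Egr1 (chr18:26736958-26737077, plus strand): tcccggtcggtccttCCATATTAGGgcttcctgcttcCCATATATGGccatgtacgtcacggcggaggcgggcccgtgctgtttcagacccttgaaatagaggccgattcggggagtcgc
Egr2 (chr20:21054442-21054561, minus strand): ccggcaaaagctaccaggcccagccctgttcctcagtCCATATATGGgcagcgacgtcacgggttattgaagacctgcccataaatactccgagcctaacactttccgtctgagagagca
Zfp36 (chr1:92799109-92799228, minus strand): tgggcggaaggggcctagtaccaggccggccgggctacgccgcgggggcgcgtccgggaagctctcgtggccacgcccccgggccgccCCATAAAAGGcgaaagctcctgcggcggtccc
Cxcl2 (chr14:17467256-17467375, minus strand): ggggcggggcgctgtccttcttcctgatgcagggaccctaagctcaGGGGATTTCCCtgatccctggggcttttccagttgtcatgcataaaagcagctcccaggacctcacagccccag
Cxcl1 (chr14:17479322-17479441, minus strand): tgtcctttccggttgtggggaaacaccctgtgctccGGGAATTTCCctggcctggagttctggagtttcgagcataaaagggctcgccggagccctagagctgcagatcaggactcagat
Nr4a1 (chr7:134260018-134260137, plus strand): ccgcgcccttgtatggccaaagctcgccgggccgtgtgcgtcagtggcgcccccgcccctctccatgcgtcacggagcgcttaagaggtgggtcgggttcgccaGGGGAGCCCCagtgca

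Over windows of 300 bases (250 before and 50 after the start, both strands), 8 motifs were counted in 185 genes that rose at least 2-fold, 37 that fell at least 2-fold and 9289 tested genes with a promoter in the table. The cAMP response element TGACGTCA was in 8.65% of the risen genes, 2.7% of the fallen genes and 2.92% of all. The AP-1 site TGANTCA was in 12.4%, 8.11% and 5.43%, the CArG box in 3.78%, 0% and 1.22%, and the NF-kappaB site in 11.9%, 5.41% and 6.15%, in the same order. The EGR site GCGNGGGCG was in 13%, 5.41% and 8.84%, and the E-box CACGTG in 11.9%, 2.7% and 8.99%. The TATA box TATAAA was in 20.5% of the risen and 35.1% of the fallen genes, against 8.61% of all, and the heat shock element was in 1.62%, 0% and 0.474%. The motifs can overlap in their letters, these shares were not tested, and a match describes letters in a window, not a bound factor.

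Genes for proteins that can end such a response rose with it at the RNA level. Of 17 tested genes of MAP kinase feedback, 12 rose and none fell (median 0.85), and of 18 cAMP and CREB targets 11 rose and none fell (median 0.92; 1 fell without mannitol replicate 1). Dusp1, a phosphatase that inactivates MAP kinases, was at 0.57, 1.12, 1.34, 1.0 and 1.17 in mannitol-perfused hearts, against -0.32, -1.41, -1.39, -1.12 and -1.55 in non-perfused hearts (4.59-fold, log2 difference 2.2, SE 0.24, adjusted p = 1.77e-07). Non-perfused replicate 1 was again the highest of its group. Errfi1, an inhibitor of the EGF receptor, rose 4.02-fold, Dusp14 3.13-fold and Spry4, a brake on receptor tyrosine kinase signalling, 2.93-fold. Dusp16 and Ptpn1 were among the 5 that were not called (-0.06 and 0.17, adjusted p = 0.828 and 0.319). Rasd1, a small G protein, was at 0.58, 0.42, 0.63, 0.64 and 0.54 with mannitol perfusion and at -3.43, -4.26, -3.81, -3.71 and -4.87 without, a 23.8-fold rise (log2 difference 4.58, SE 0.25, adjusted p = 8.41e-13). Its lowest perfused heart lay far above its highest non-perfused heart, and 3 of the non-perfused arrays were above background. Sik1, a kinase that restrains CREB coactivators, rose 4.91-fold (log2 difference 2.3, SE 0.24, adjusted p = 7.75e-08). The EGF receptor ligand Areg, at background on all non-perfused arrays, rose at least 3.03-fold (adjusted p = 0.000117). Another ligand of that receptor, Hbegf, rose 3.31-fold (log2 difference 1.73, SE 0.18, adjusted p = 5.4e-08).

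Among genes that destabilise mRNA or restrain growth, 10 of 14 rose and 1 fell (median 0.84), and none fell when any 1 of the 10 arrays was left out. Zfp36, which binds AU-rich elements and directs the decay of cytokine mRNAs, was at 0.38, 0.63, 0.83, 0.81 and 0.3 in mannitol-perfused hearts, against -2.74, -3.84, -4.0, -2.73 and -4.23 in non-perfused hearts (17.1-fold, log2 difference 4.1, SE 0.32, adjusted p = 4.69e-10). Btg2, an antiproliferative adaptor of mRNA deadenylation, was at 4.99, 4.66, 5.0, 4.43 and 4.62, against 1.89, 0.95, 0.51, 2.05 and 1.13 in non-perfused hearts (10.8-fold, log2 difference 3.43, SE 0.29, adjusted p = 1.55e-09). For both genes the perfused hearts were close together and every non-perfused heart lay below them. The endoribonuclease Zc3h12a rose 3.41-fold and the deadenylase Noct 3.62-fold. Of 12 tested Krüppel-like factors, 9 rose and none fell (median 0.70), led by Klf4 (4.69-fold, log2 difference 2.23, SE 0.15, adjusted p = 3.48e-11), Klf2 (3.31-fold) and Klf6 (3.27-fold). Klf15, a metabolic regulator of heart muscle, was not called (-0.18, adjusted p = 0.244). In Klf12, mannitol replicate 5 stood apart at -0.60 from the other mannitol arrays (-4.14 to -3.35), and the groups overlapped. The call was lost in 15 of its 24 alternative settings, among them without mannitol replicate 3 or 5 and without non-perfused replicate 1, 2, 3 or 5. Without mannitol replicate 5 the log2 difference was 0.83, against 1.47 with it.

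Inflammatory mediators rose, with the neutrophil-attracting chemokines in front. Of 21 tested chemokines 10 rose and 1 fell (median 0.55; none fell without any 1 of mannitol or non-perfused replicates 3, 4 and 5). Of 24 cytokines and cytokine receptors 11 rose and 1 fell (median 0.21). Cxcl2 was at 0.57, 1.42, 0.36, -0.06 and 0.99 in mannitol-perfused hearts, against -5.12, -6.07, -5.97, -5.31 and -5.94 in non-perfused hearts, where only 2 arrays were above background (81-fold, log2 difference 6.34, SE 0.46, adjusted p = 1.04e-10). The log2 difference of Cxcl2 ran from 3.92 to 6.52 over the alternative settings, and its call was kept. Cxcl1 was at 1.18, 1.99, 1.25, 1.23 and 1.41 with mannitol perfusion and at -3.4, -3.82, -4.01, -2.86 and -3.28 without (29.6-fold, log2 difference 4.89, SE 0.39, adjusted p = 7.15e-10). The monocyte chemokine Ccl2 was at 2.33, 3.3, 2.72, 3.18 and 2.59, against -0.65, -1.16, -0.61, -0.27 and -0.83 in non-perfused hearts (11.5-fold, log2 difference 3.52, SE 0.31, adjusted p = 2.79e-09). Ccl3, Ccl7 and Ccl4 rose 10.2-fold, 9.54-fold and 5.11-fold. Mannitol replicate 2 had the highest level of Cxcl2, Cxcl1, Ccl2, Ccl3 and Ccl7 among the perfused hearts. Ccl24, with levels of 3.57 to 3.80 in mannitol-perfused and 3.76 to 3.92 in non-perfused hearts, was not called (-0.16, adjusted p = 0.182), nor were Cxcl16 (-0.16) and Ccl21 (0.26).

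The cytokine Tnf was at 2.03, 2.25, 2.6, 1.89 and 2.18 with mannitol perfusion and at -0.93, -0.48, -0.6, 0.14 and -0.29 without (6.15-fold, log2 difference 2.62, SE 0.26, adjusted p = 3.69e-08), with no overlap. Il1b, which needs cleavage before release, rose 7.15-fold (log2 difference 2.84, SE 0.41, adjusted p = 1.94e-05). Il6 rose 5.2-fold (log2 difference 2.38, SE 0.31, adjusted p = 3.63e-06), although it stayed dim, between -4.15 and -3.54 in perfused and between -7.43 and -5.51 in non-perfused hearts. Its log2 difference ran from 0.65 to 2.74 over the alternative settings, and the call was kept. Tnfrsf12a, the receptor of TWEAK, rose 3.75-fold and the macrophage growth factor Csf1 2.37-fold. The cytokine that fell was Ctf1, cardiotrophin 1, at -2.63, -2.63, -2.47, -2.59 and -2.62, against -1.86, -2.28, -1.8, -2.32 and -2.12 in non-perfused hearts (log2 difference -0.51, SE 0.09, adjusted p = 0.00035). Receptor subunit Il6st and the alarmin Il33 were not called (-0.07 and 0.01, adjusted p = 0.853 and 0.991).

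In the NF-kappaB pathway 7 of 17 tested genes rose and 1 fell (none without mannitol replicate 5 or non-perfused replicate 5). The inhibitor Nfkbie rose 3-fold (log2 difference 1.59, SE 0.15, adjusted p = 1.87e-08), the co-regulator Bcl3 2.56-fold, the apoptosis inhibitor Birc3 2.5-fold and the receptor Tlr2 2.07-fold. The subunit Rela was not called (0.2, adjusted p = 0.109). Of 18 genes of JAK-STAT signalling and its feedback 7 rose and none fell. Socs3, the inhibitor induced by IL-6 type cytokines, was at -1.63, -0.73, -0.9, -0.46 and -0.8 in perfused and -2.78, -2.71, -2.82, -3.24 and -2.94 in non-perfused hearts (3.98-fold, log2 difference 1.99, SE 0.24, adjusted p = 1.24e-06). Of 27 interferon-response genes 4 rose (2 without mannitol replicate 1) and none fell, with a median of -0.05. The share called was 14.8%, beside 11.2% of all tested genes. Irf1 rose 2.05-fold (log2 difference 1.04, SE 0.18, adjusted p = 0.00024), and Mx2 was not called (-0.24, adjusted p = 0.226).

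Of 16 tested genes of endothelial activation 13 rose and none fell, with a median of 0.98. Under normexp background correction and with the authors' deposited values 8 of them rose. The leukocyte adhesion molecule Icam1 was at 1.37, 1.67, 1.46, 1.43 and 1.46 with mannitol perfusion, against -0.86, -1.11, -1.04, -0.7 and -1.0 without (5.35-fold, log2 difference 2.42, SE 0.18, adjusted p = 1.45e-10). Icam1 varied little within either group, and the groups were far apart. Procr, the protein C receptor, rose 4.11-fold and the urokinase receptor Plaur 3.48-fold; tissue factor, F3, was not called (0.61, adjusted p = 0.0835). Apold1, an endothelial gene of early response, was among the 15 highest rises. It was at 1.93, 1.6, 2.17, 2.12 and 1.71, against -0.4, -1.95, -2.86, -2.02 and -2.51 in non-perfused hearts (14.5-fold, log2 difference 3.86, SE 0.31, adjusted p = 7.5e-10), where replicate 1 again stood highest. Of 18 endothelial identity markers 3 rose and none fell (median 0.06). The VEGF receptor Kdr was at 0.06 (adjusted p = 0.822).

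Angiogenic and Notch genes included 10 rises and 1 fall among 31 tested (2 falls without mannitol replicate 2), and 4 rises under normexp background correction. The tight junction protein Cldn5 rose 3.33-fold (log2 difference 1.74, SE 0.13, adjusted p = 2.11e-10) and placental growth factor, Pgf, 2.66-fold (log2 difference 1.41, SE 0.2, adjusted p = 1.43e-05). Vegfa, the main angiogenic factor, was at 5.22, 5.16, 5.19, 4.81 and 5.1 with mannitol perfusion and at 4.58, 4.46, 4.45, 4.81 and 4.72 without (1.41-fold, log2 difference 0.49, SE 0.12, adjusted p = 0.00479). The lowest perfused and the highest non-perfused heart were equal to 2 decimals. Its call was lost under normexp background correction and with the authors' deposited values. The apelin receptor Aplnr fell, at -1.28, -0.97, -1.15, -1.29 and -0.84 in perfused and -0.29, -0.23, 0.04, -0.43 and -0.21 in non-perfused hearts (1.84-fold lower, log2 difference -0.88, SE 0.14, adjusted p = 9.42e-05).

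Among matrix genes 7 of 28 rose and 1 fell (median 0.13; none fell without mannitol replicate 2 or non-perfused replicate 2). The protease Adamts1 was at 5.1, 4.33, 4.94, 4.82 and 4.8 in mannitol-perfused hearts, against 1.45, 0.99, 0.57, 2.03 and 1.01 in non-perfused hearts (12-fold, log2 difference 3.59, SE 0.19, adjusted p = 4.59e-13). The matricellular protein Ccn1 was at 5.01, 4.81, 4.47, 4.8 and 4.79, against 1.86, 0.58, 1.16, 1.55 and 0.56 in non-perfused hearts (12.4-fold, log2 difference 3.63, SE 0.27, adjusted p = 1.99e-10). Ccn2 rose 4.62-fold and hyaluronan synthase Has1 3.06-fold. Adamts4 rose 3.97-fold, was above background on 4 perfused and 1 non-perfused arrays, and lost its call under normexp background correction. Thrombospondin 1, Thbs1, was above background on all perfused and on none of the non-perfused arrays, a rise of at least 2.71-fold (adjusted p = 0.000772) that also lost its call under normexp background correction. The abundant matrix genes Sparc and Timp2 were not called (-0.1 and -0.04). In the TGF-beta and BMP list 6 of 27 rose and none fell, and Tgif1 led with 2.67-fold (log2 difference 1.42, SE 0.11, adjusted p = 2.34e-10).

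**Figure D3:**
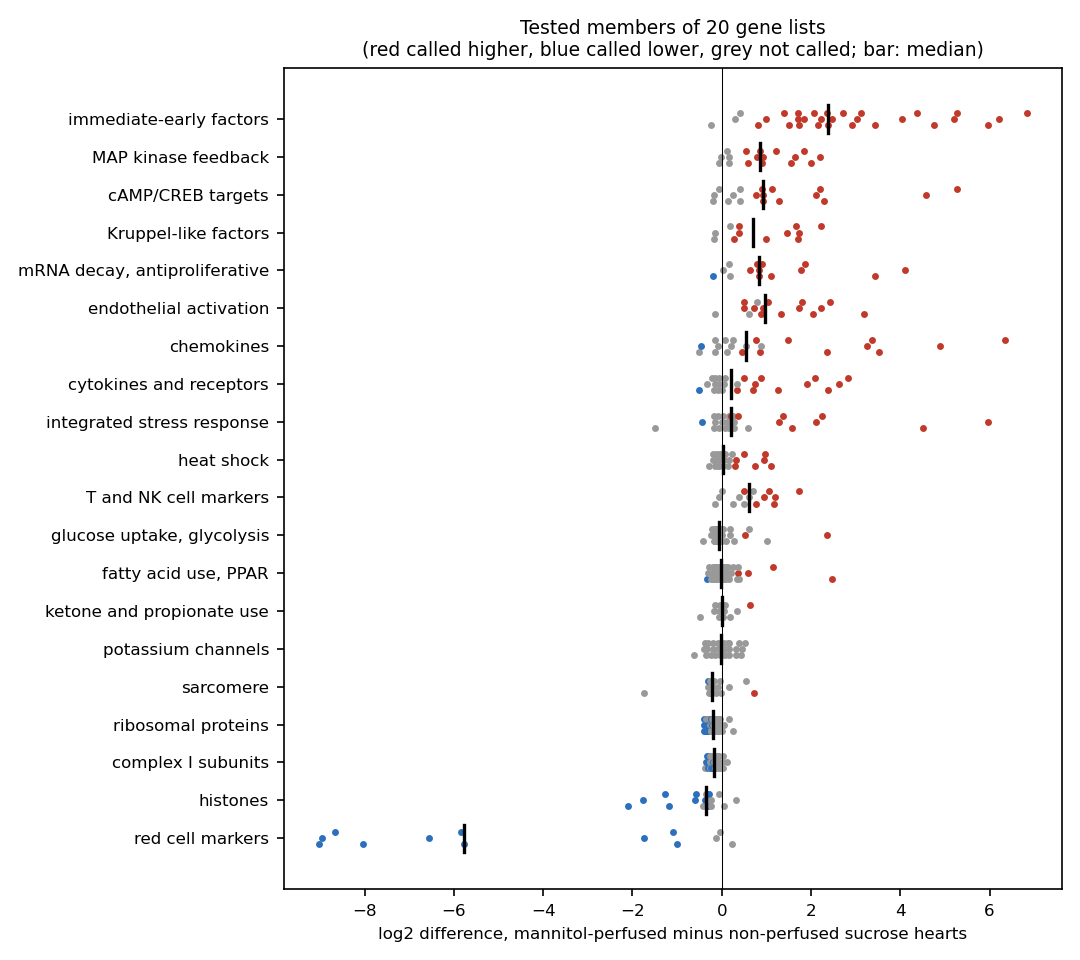
Log2 difference, mannitol-perfused minus non-perfused sucrose hearts (x axis), of each tested member of 20 gene lists (rows), with red points called higher, blue points called lower, grey points not called and a black bar at the median. The medians lie at 2.37 for immediate-early factors and at -5.77 for red cell markers, and lists of fuel use and ion channels centre near zero.

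Of 29 tested genes of the integrated stress response, which slows translation and induces Atf4, 9 rose and 1 fell (median 0.21). None fell without any 1 of mannitol replicates 1 to 4 or non-perfused replicate 1, and 2 fell without non-perfused replicate 3. Atf4 was at 5.36, 5.13, 5.28, 5.28 and 4.96 with mannitol perfusion and at 3.56, 3.54, 3.52, 3.76 and 3.7 without (3-fold, log2 difference 1.58, SE 0.09, adjusted p = 1.79e-12). Its target Ddit3, also called CHOP, was at 5.61, 5.16, 5.6, 5.44 and 5.51 in perfused and at 3.79, 3.31, 3.11, 3.31 and 3.23 in non-perfused hearts (4.32-fold, log2 difference 2.11, SE 0.12, adjusted p = 1.35e-12). Ppp1r15a, which restores translation, rose 4.77-fold (log2 difference 2.25, SE 0.14, adjusted p = 6.95e-12). Gdf15, a secreted stress cytokine, was at 0.42, 0.54, 0.46, 0.34 and 0.96 with perfusion and at -4.54, -3.64, -3.99, -3.7 and -4.02 without (22.9-fold, log2 difference 4.52, SE 0.35, adjusted p = 2.79e-10). Sesn2 rose 2.6-fold on average, but mannitol replicate 5 stood at 0.17 and the other perfused hearts between -2.92 and -2.11. Without that array the log2 difference was 0.85, against 1.38 with it. The aminoacyl-tRNA synthetase Wars1 and the factor Atf5 were not called (-0.15 and 0.17).

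In the unfolded protein response list none of 20 tested genes was called higher and 4 were called lower. The share called was 20%, beside 11.2% of all tested genes. By sign 7 were higher and 13 lower, with the chaperone Hspa5 at -0.06 (adjusted p = 0.812). Sec61b, a subunit of the protein channel of the endoplasmic reticulum, was at 0.24, 0.67, 0.52, 0.51 and 0.14 in mannitol-perfused hearts, against 0.78, 0.89, 0.71, 0.79 and 0.89 in non-perfused hearts (log2 difference -0.4, SE 0.1, adjusted p = 0.00986), a call lost without the 4 noisy arrays. Without mannitol replicate 3 or non-perfused replicate 3 the list had 2 falls, and without mannitol replicate 5 or non-perfused replicate 2 it had 1 rise. Of 25 heat shock genes 7 rose and none fell (1 fell without mannitol replicate 4 or non-perfused replicate 1 or 3), but the median was 0.03. The co-chaperones Dnaja1 and Dnajb4 rose 2.15-fold and 1.98-fold. Hspb1, a small heat shock protein, was at 5.89, 6.01, 5.54, 5.77 and 5.85, against 4.81, 5.15, 5.37, 4.92 and 5.07 in non-perfused hearts (log2 difference 0.75, SE 0.18, adjusted p = 0.00636), a call lost without the 4 noisy arrays. Cryab, the brightest of them at levels of 8.56 to 9.2, was not called (-0.28, adjusted p = 0.203).

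Of 25 antioxidant genes of the Nrf2 list 6 rose and 3 fell (1 fell without mannitol replicate 2 or non-perfused replicate 4). Osgin1 rose 5.1-fold (log2 difference 2.35, SE 0.22, adjusted p = 1.63e-08), Srxn1 2.31-fold, Nfe2l2, which encodes Nrf2, 1.74-fold and the glutathione synthesis enzyme Gclc 1.63-fold. Hmox1, heme oxygenase 1, was at -0.31, -0.39, -0.51, 0.14 and -0.78 in mannitol-perfused hearts and -0.99, -1.11, -0.9, -1.39 and -1.24 in non-perfused hearts, groups that did not overlap but did not pass the test (log2 difference 0.76, SE 0.28, adjusted p = 0.0909). The metallothioneins Mt1 and Mt2A, which bind zinc, rose 2.87-fold and 3.3-fold (1.52 and 1.72 on the log2 scale, adjusted p = 7.82e-06 and 1.1e-05).

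Growth arrest and survival genes included 12 rises and no fall among 31 tested (median 0.31; 1 fall without mannitol replicate 4 or non-perfused replicate 2). Plk3 rose 9.89-fold, Gadd45g 7.48-fold, Gadd45b 5.4-fold and the survival protein Mcl1 4.06-fold. Mcl1 was at 1.49, 1.47, 1.64, 1.89 and 1.2 with perfusion and at -0.38, -0.91, -0.51, -0.25 and -0.37 without (log2 difference 2.02, SE 0.15, adjusted p = 1.1e-10). The cell cycle inhibitor Cdkn1a was not called (-0.25, adjusted p = 0.628), nor was Ccng1 (-0.11). In the polyamine list Sat1, which acetylates spermidine for export, was at 1.98, 2.28, 1.95, 2.01 and 1.54, against -0.13, -0.48, -0.27, -0.66 and -0.8 in non-perfused hearts (5.35-fold, log2 difference 2.42, SE 0.22, adjusted p = 6.32e-09). Odc1 and Azin1 rose 1.37-fold and 1.36-fold. Rassf1, a tumour suppressor of the Ras association family, and Slc25a25, a calcium-sensitive mitochondrial carrier of ATP-Mg, had narrow groups far apart. Rassf1 was at 0.77, 0.35, 0.76, 0.47 and 0.8 with mannitol perfusion, against -1.43, -1.32, -1.41, -1.32 and -1.35 without (log2 difference 2.0, SE 0.1, adjusted p = 1.31e-13). Slc25a25 was at 3.33, 2.9, 3.17, 3.12 and 3.05 with mannitol perfusion, against 1.22, 1.15, 0.83, 0.93 and 0.81 without (log2 difference 2.12, SE 0.15, adjusted p = 7.98e-11).

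The lists of fuel use given next cover glucose, ketone, fatty acid, glycogen and citric acid cycle genes. Their share called ran from 0% (glycogen metabolism) to 10.9% (fatty acid use), beside 11.2% of all tested genes. Of the further metabolic lists whose genes follow, insulin and FOXO signalling had 31% called, hexosamine 27.3% and carbohydrate-responsive genes 26.7%. Pyruvate dehydrogenase and sterol lists had 7.14% and 11.1%. In glucose uptake and glycolysis 2 of 32 rose and none fell, and 1 fell without mannitol replicate 2 or 3 or non-perfused replicate 3 or 4. In ketone and propionate use 1 of 15 rose. It did not pass without mannitol replicate 1, 3 or 4 or non-perfused replicate 2 or 5, nor under quantile normalization, normexp background correction or the authors' deposited values. In fatty acid use and PPAR targets 4 of 46 rose and 1 fell (2 fell without mannitol replicate 3 and 4 without non-perfused replicate 1). Glycogen metabolism had none of 18 called (1 rise without mannitol replicate 1) and the citric acid cycle 1 of 20, lower (none without mannitol replicate 2). Irs2, the insulin receptor substrate that relays insulin signals to PI3 kinase, was at 3.07, 2.69, 2.88, 2.31 and 2.27 in mannitol-perfused hearts, against -0.73, -1.04, -0.43, -0.09 and -0.93 in non-perfused hearts (9.76-fold, log2 difference 3.29, SE 0.25, adjusted p = 2.26e-10). Slc2a3, a high-affinity glucose transporter, was at -2.35, -2.16, -2.62, -2.62 and -2.46, against -5.55, -4.94, -5.27, -5.23 and -3.0 in non-perfused hearts (5.12-fold, log2 difference 2.36, SE 0.29, adjusted p = 1.1e-06). Non-perfused replicate 5, at -3.0, was above the rest of its group. Over the alternative settings the log2 difference of Slc2a3 ran from 1.06 to 2.81, and its call was kept. The lactate transporter Slc16a3 rose 1.44-fold (adjusted p = 0.000599). The main cardiac glucose transporters Slc2a4 and Slc2a1 were not called (-0.09 and -0.04, adjusted p = 0.546 and 0.92), nor was hexokinase Hk2 (0.01, adjusted p = 0.967).

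Pdk4, the kinase that shuts pyruvate dehydrogenase, was at 0.02, -1.1, -1.19, -0.81 and -1.27 with mannitol perfusion and at -2.6, -1.61, -1.78, -1.93 and -2.14 without (2.2-fold, log2 difference 1.14, SE 0.23, adjusted p = 0.00113). Angptl4, the secreted inhibitor of lipoprotein lipase, was at 3.75, 2.24, 1.32, 2.81 and 0.7, against -1.74, 0.23, 0.81, 0.62 and -1.39 in non-perfused hearts (5.51-fold, log2 difference 2.46, SE 0.51, adjusted p = 0.00151). Mannitol replicate 1, the array alone on its slide, was the highest for both genes and for Ucp3, whose groups overlapped (2.03, 0.45, 0.47, -0.52 and 0.74, against -0.43, 1.07, 1.43, 1.35 and 1.18, log2 difference -0.29, SE 0.43, adjusted p = 0.755). Without that array the log2 differences were 0.92 for Pdk4 and 2.07 for Angptl4. Pdk4 lost its call only when it was left out together with the 4 noisy arrays. The ketone enzymes Bdh1 and Oxct1 did not pass (0.0 and -0.14, adjusted p = 0.996 and 0.347). The fatty acid enzyme Acadl and the co-activator Ppargc1a were not called either (-0.02 and -0.17, adjusted p = 0.921 and 0.325).

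Txnip, an arrestin-family protein induced by glucose, was at 3.13, 2.83, 2.99, 2.5 and 2.69 in mannitol-perfused hearts, against 3.45, 3.2, 3.85, 3.77 and 3.01 in non-perfused hearts, groups that overlapped (1.55-fold lower, log2 difference -0.63, SE 0.19, adjusted p = 0.0304). That call was lost in 14 of 25 alternative settings, among them without any 1 of mannitol replicates 2, 4 and 5 or non-perfused replicates 1, 3 and 4. The log2 difference ran from -0.84 to -0.53 over the settings. In the hexosamine list Gfpt2 and Uap1, which lead to UDP-N-acetylglucosamine, rose 2.36-fold and 2.27-fold (adjusted p = 0.000256 and 2.49e-05), and Ogt was not called (0.21). Insig1, which retains the sterol sensor in the endoplasmic reticulum, rose 2.31-fold (log2 difference 1.21, SE 0.1, adjusted p = 2.46e-09), while Hmgcs1 was at -0.03 (adjusted p = 0.915).

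The deepest falls were of red blood cell transcripts. Of 13 tested red cell markers 10 fell and none rose, with a median of -5.77. The summed level of the list was 3.78 to 4.87 in mannitol-perfused hearts and 9.22 to 9.94 in non-perfused hearts. The beta-globin Hbb was at -2.02, 1.96, -0.6, -2.04 and -2.36 with mannitol perfusion and at 7.23, 8.07, 7.55, 7.93 and 7.53 without, 407-fold lower (log2 difference -8.67, SE 0.95, adjusted p = 1.86e-07). The alpha-globin Hba-a1 was at 2.15, 3.71, 2.83, 2.62 and 2.53 in perfused hearts, against 8.12, 8.69, 8.83, 8.79 and 8.57 in non-perfused hearts (57-fold lower, log2 difference -5.83, SE 0.4, adjusted p = 3.71e-11). Alas2, the erythroid enzyme of heme synthesis, was at -5.3, -4.97, -4.73, -5.49 and -5.31 in perfused hearts, against -0.07, 0.85, 0.83, 0.98 and 0.44 in non-perfused hearts (54.5-fold lower, log2 difference -5.77, SE 0.34, adjusted p = 2.35e-12). Mannitol replicate 2 kept the highest globin levels of the perfused hearts, for Hbb more than 2 log2 units above the other perfused hearts and still far below every non-perfused heart. Globin genes are near-identical copies, so Hbe2, Hbb-bs and Hbb-b1 (-9.02, -8.95 and -8.03) may be read by cross-hybridising probes. Hba-a3 was at background on all perfused arrays, at least 48.7-fold lower. Slc4a1, Tfrc and Car1 of the same list were not called (0.23, -0.13 and -0.03), and the reason was not tested. In whole tissue, fewer cells of a type and less RNA per cell cannot be told apart.

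Npy, the neuropeptide of sympathetic nerve endings, was lower in every perfused than in any non-perfused heart. It was at -5.06, -4.81, -4.63, -4.82 and -4.85 with mannitol perfusion, where 2 arrays were above background, and at -1.19, 0.25, -0.33, 0.68 and -0.46 without perfusion (24.7-fold lower, log2 difference -4.63, SE 0.41, adjusted p = 3.83e-09). Of 10 tested sympathetic markers 1 rose and Npy alone fell. The vesicle transporter Slc18a2 was 1.4-fold higher (log2 difference 0.49, SE 0.15, adjusted p = 0.0361), a call lost in 12 of 25 alternative settings, among them without mannitol replicate 1, 3 or 4 and without non-perfused replicate 1, 3 or 5. The enzymes of noradrenaline synthesis Th, Dbh and Ddc had log2 differences of -0.03, -0.13 and -0.09 (adjusted p = 0.962, 0.744 and 0.8).

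Of 8 tested neutrophil markers 2 fell and none rose. The calgranulin S100a9 was at -6.34, -4.14, -6.52, -4.37 and -4.79 in mannitol-perfused hearts, against -2.93, -2.71, -3.32, -1.77 and -2.8 in non-perfused hearts (5.76-fold lower, log2 difference -2.53, SE 0.48, adjusted p = 0.000599). Its partner S100a8 was at background on all perfused arrays and at least 2.3-fold lower (adjusted p = 0.00925). The summed neutrophil list overlapped between the groups, at -0.53 to 0.36 in perfused and -0.28 to 0.41 in non-perfused hearts. Lcn2 was not called (-0.06, adjusted p = 0.937). Among 8 platelet markers 1 rose, Thbs1 as given above, and 1 fell (2 without mannitol replicate 1). Clec1b fell 4.89-fold (log2 difference -2.29, SE 0.5, adjusted p = 0.0027), with groups that overlapped and 1 perfused and 3 non-perfused arrays above background. Pf4 was not called (-0.27, adjusted p = 0.172). Among 4 B cell markers Cd79b was at least 1.44-fold lower (adjusted p = 0.00986) and Fcmr was 1.72-fold higher (adjusted p = 0.00239). Cd79b lost its call when only the groups compared were fitted, and Fcmr lost its call with the authors' deposited values. The summed level of the 8 B cell markers on the array was higher with perfusion, at 1.6 to 1.93, against 1.26 to 1.5 in non-perfused hearts. This sum weighs bright markers most, and 4 of the 8 were above background on no perfused array. By sign, 1 of the 4 tested markers was higher and 3 were lower (median -0.38).

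Of 15 tested markers of T and NK cells 7 rose and none fell (median 0.62). The summed level was 2.45 to 3.31 in mannitol-perfused hearts and 2.09 to 2.40 in non-perfused hearts. Gzmb, a cytotoxic granule protease, was at -2.56, -3.09, -2.32, -2.07 and -1.73, against -3.64, -4.21, -4.23, -3.88 and -4.44 in non-perfused hearts (3.31-fold, log2 difference 1.73, SE 0.28, adjusted p = 0.000107). The granule protein Nkg7 was at 0.5, -0.41, -0.09, 0.34 and 0.36 in perfused hearts, against -1.18, -0.69, -0.61, -0.63 and -0.95 in non-perfused hearts (1.93-fold, log2 difference 0.95, SE 0.19, adjusted p = 0.000838). Cd3d, a chain of the T cell receptor complex that defines T cells, was at -0.71, -0.12, -0.15, -0.21 and -0.08 with mannitol perfusion, against -0.54, -0.21, -0.08, -0.2 and -0.24 without, and was not called (log2 difference 0.0, SE 0.11, adjusted p = 0.999). Neither were Cd8b (-0.07) and perforin, Prf1 (0.7, adjusted p = 0.115). The count of rises was 4 without mannitol replicate 4 or 5 or non-perfused replicate 1, 3 without the 4 noisy arrays, and 2 under normexp background correction and with the authors' deposited values. Nkg7 lost its call without the 4 noisy arrays.

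Of 14 resident macrophage markers 4 rose (2 without non-perfused replicate 5) and 1 fell. Their summed level was 3.9 to 4.37 in perfused and 3.54 to 4.15 in non-perfused hearts. The mannose receptor Mrc1 was at -3.43, -3.56, -3.95, -3.67 and -2.8 with mannitol perfusion and at -5.31, -4.82, -4.77, -4.79 and -5.48 without (2.93-fold, log2 difference 1.55, SE 0.3, adjusted p = 0.000858). Lyve1 rose 1.66-fold (log2 difference 0.73, SE 0.17, adjusted p = 0.00579). The factor Maf fell 1.43-fold (log2 difference -0.51, SE 0.1, adjusted p = 0.000521). C1qa and C1qb were not called (0.41 and 0.44, adjusted p = 0.0851 and 0.0595). The fractalkine receptor Cx3cr1, of the monocyte list, was at 1.59, 1.36, 1.62, 1.46 and 1.7, against 1.84, 2.33, 2.03, 1.96 and 2.29 in non-perfused hearts (1.46-fold lower, log2 difference -0.54, SE 0.14, adjusted p = 0.012). It was the only call among 10 monocyte markers (1 rose without mannitol replicate 3 or non-perfused replicate 3), whose summed levels overlapped (3.98 to 4.31 in perfused and 3.93 to 4.29 in non-perfused hearts). The mast cell protease Cma1 fell 1.96-fold (log2 difference -0.97, SE 0.22, adjusted p = 0.00392), the only call among 9 mast and dendritic cell markers (1 rose without mannitol replicate 1). The share called was 10% of monocyte and 11.1% of mast and dendritic cell markers, beside 11.2% of all tested genes.

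The share called was 10.5% for sarcomere genes, 5.56% for cardiomyocyte markers and 3.7% for calcium-cycling genes, beside 11.2% of all tested genes. Of 19 sarcomere genes 1 rose and 1 fell, of 18 cardiomyocyte markers none rose and 1 fell, of 27 calcium-cycling genes none rose and 1 fell, and none of 30 tested potassium channel genes was called. These counts are small and moved with single arrays: 2 sarcomere genes fell without mannitol replicate 3 or 4 or non-perfused replicate 2, and 3 cardiomyocyte markers fell without mannitol replicate 3 and 2 without non-perfused replicate 2. Without non-perfused replicate 4, 1 calcium-cycling gene rose and 1 potassium channel gene fell. Lmod2, which lengthens thin filaments, was at 6.89, 6.46, 6.75, 6.94 and 6.48 in mannitol-perfused hearts, against 6.22, 5.72, 5.92, 6.04 and 5.94 in non-perfused hearts (1.66-fold, log2 difference 0.73, SE 0.1, adjusted p = 8.87e-06). The gene that fell among both calcium-cycling and cardiomyocyte genes was Pln, phospholamban, the inhibitor of the calcium pump. It was at 8.0, 8.22, 8.41, 8.31 and 8.42 in perfused hearts, against 8.49, 8.6, 8.67, 8.64 and 8.66 in non-perfused hearts (1.26-fold lower, log2 difference -0.34, SE 0.09, adjusted p = 0.0101). That call was lost under quantile normalization and with the authors' deposited values. The pump itself, Atp2a2, was at -0.28 (adjusted p = 0.167), and Myh6 at -0.31 (adjusted p = 0.322). Of the natriuretic peptides, Nppb was at 6.5, 5.91, 6.91, 6.94 and 6.48 in perfused hearts, against 5.32, 6.04, 4.2, 6.24 and 6.34 in non-perfused hearts (log2 difference 0.92, SE 0.33, adjusted p = 0.0774). Nppa ran from 1.44 to 3.53 in perfused and from -0.34 to 3.11 in non-perfused hearts (log2 difference 0.21, SE 0.78, adjusted p = 0.914).

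Gja5, the gap junction protein of atria, conduction fibres and arterial endothelium, fell. It was at -1.64, -2.42, -2.49, -2.28 and -2.99 in mannitol-perfused hearts, against -1.4, -0.89, -1.25, -1.01 and -0.58 in non-perfused hearts (2.53-fold lower, log2 difference -1.34, SE 0.22, adjusted p = 0.000103). The atrial and conduction list had 3 falls (1 without mannitol replicate 4 or 5 or non-perfused replicate 4) and no rise among 14 tested (1 rise without mannitol replicate 5 or non-perfused replicate 1). Its summed level was 7.59 to 7.71 in perfused and 7.81 to 7.91 in non-perfused hearts. The part of atrial and conduction tissue in the fall of Gja5 was not tested. Gja4, the endothelial gap junction protein, rose 1.88-fold (log2 difference 0.91, SE 0.1, adjusted p = 2.16e-07).

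Among clock genes 4 of 18 rose and none fell. Bhlhe40 rose 2.63-fold with no overlap (log2 difference 1.39, SE 0.16, adjusted p = 6.41e-07). For Per2, a core repressor of the clock, the mannitol-perfused hearts were at -0.83, -1.74, -0.93, -0.64 and -1.98, against -1.19, -3.35, -3.38, -3.36 and -3.83 in the non-perfused hearts (log2 difference 1.8, SE 0.49, adjusted p = 0.0154). Non-perfused replicate 1 stood with the perfused hearts for Per2 and for Ciart, another clock repressor, and above them for Dbp, an output factor that was not called (log2 difference 0.94, SE 0.55, adjusted p = 0.32). Without that array the log2 differences were 2.26 for Per2, 3.79 for Ciart and 1.43 for Dbp, against 1.8, 2.92 (adjusted p = 0.013) and 0.94 with it. Per2 lost its call without non-perfused replicate 5.

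Of 20 tested histone genes 11 fell and none rose (median -0.35), beside 5.67% of all genes called lower. The linker histone H1f4 was at -2.74, -1.92, -2.26, -1.98 and -2.08 in mannitol-perfused hearts, against -0.3, -0.26, 0.15, -0.07 and 0.0 in non-perfused hearts (4.29-fold lower, log2 difference -2.1, SE 0.22, adjusted p = 1.13e-07). H1f5 was 3.39-fold lower (log2 difference -1.76, SE 0.29, adjusted p = 0.000131). H2ac4 fell 1.52-fold and H1f0, a replacement linker histone, was not called (-0.24, adjusted p = 0.0824). Histone genes are near-copies of one another, so single members may share signal. Of 146 tested genes whose symbols begin with Zfp 28 fell and 8 rose (median -0.15). The share called was 24.7%, beside 11.2% of all tested genes. Zfp94 was at -3.86, -3.55, -3.51, -4.21 and -4.21, against -2.47, -2.59, -2.5, -2.53 and -2.34 in non-perfused hearts (2.61-fold lower, log2 difference -1.38, SE 0.15, adjusted p = 1.05e-07). Zfp472 was 3.49-fold lower (log2 difference -1.8, SE 0.25, adjusted p = 6.72e-06). Without non-perfused replicate 3, 7 histone genes fell, and with the authors' deposited values 3 histone genes and 2 Zfp-named genes fell.

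Genes for ribosomes and the respiratory chain had small falls. Of 76 tested genes whose symbols begin with Rpl or Rps 26 fell and none rose (median -0.21). Of complex I subunits 9 of 32 fell (median -0.17), of complex IV 5 of 16 and of complex V 4 of 16 (median -0.21 each). Rpl13 was at 6.38, 6.72, 6.56, 6.37 and 6.35 in mannitol-perfused hearts, against 6.83, 6.86, 6.87, 6.86 and 6.94 in non-perfused hearts (log2 difference -0.4, SE 0.09, adjusted p = 0.00332). Uqcr10 of complex III was at 7.81, 8.07, 8.37, 8.14 and 8.03 in perfused hearts, against 8.48, 8.45, 8.43, 8.54 and 8.62 in non-perfused hearts (log2 difference -0.42, SE 0.08, adjusted p = 0.000925). Uqcrq, also of complex III, went the other way by 2.56-fold, at 3.23, 3.41, 3.54, 3.21 and 3.49 in perfused hearts, against 2.52, 2.21, 1.77, 1.59 and 2.0 in non-perfused hearts (log2 difference 1.35, SE 0.19, adjusted p = 1.33e-05). Mitochondrial ribosomal genes had 12 falls and no rise among 67 (median -0.15), with Mrps16 1.25-fold lower (log2 difference -0.32, SE 0.06, adjusted p = 0.000621). The share called was 34.2% for Rpl and Rps genes and 17.9% for mitochondrial ribosomal genes, beside 11.2% of all tested genes. For complexes I, IV and V it was 28.1%, 31.2% and 25%.

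These small falls moved with single arrays, brightness and scaling. The ribosomal count was 17 without mannitol replicate 1, the mitochondrial ribosomal count 7 without non-perfused replicate 4, and the complex I count 5 without mannitol replicate 2 or 5 or non-perfused replicate 5. The complex IV count ran from 0 to 5 and the complex V count from 1 to 5 over the 10 fits that each left out 1 array, 0 for complex IV without non-perfused replicate 5. The brightest 1834 of the tested genes had a median log2 difference of -0.15, with 215 genes called lower and 38 higher, while the dimmest 1833 had a median of 0.10. Under quantile normalization the brightest 1834 had a median of -0.01, the ribosomal list -0.06, complex I 0.0 and complex V 0.03. None of the ribosomal, complex I, complex IV or complex V genes fell there, Rpl13 and Uqcr10 included, and with the authors' deposited values likewise none fell. In the values used here the histone median was -0.35. It was -0.35 under quantile normalization and -0.29 with the authors' deposited values. The Zfp median was -0.15 under quantile normalization and -0.08 with the deposited values.

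**Figure D4:**
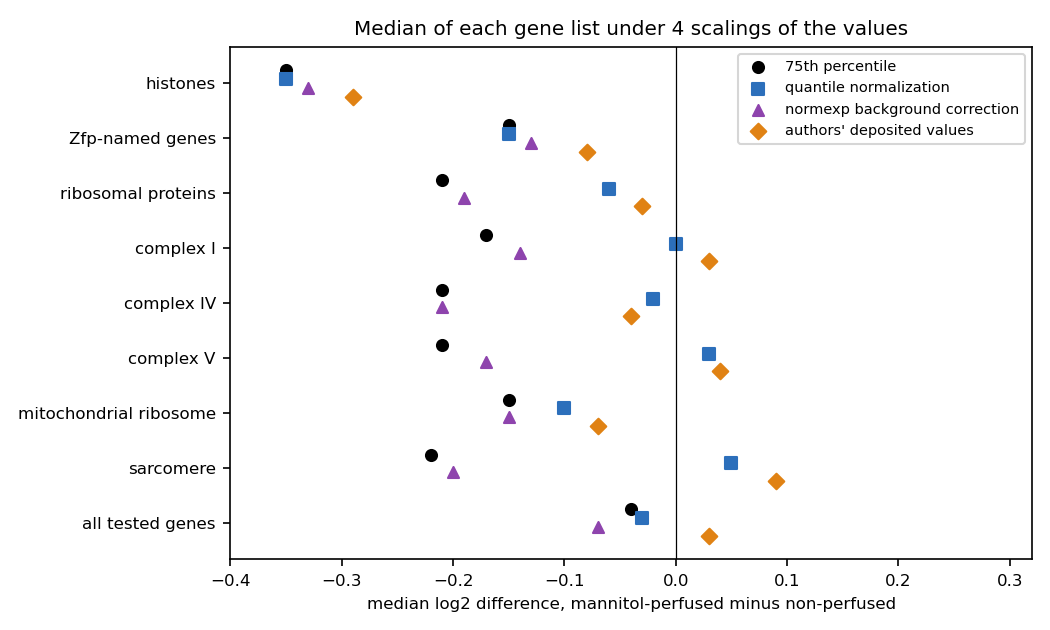
Median log2 difference, mannitol-perfused minus non-perfused sucrose hearts (x axis), of 8 gene lists and of all tested genes (rows) under 4 scalings of the values (symbols). Histone medians stay between -0.35 and -0.29, whereas the medians of ribosomal proteins, complexes I, IV and V and sarcomere genes lie between -0.22 and -0.17 for the 75th percentile and between -0.06 and 0.09 under quantile normalization and with the authors' deposited values.

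In chow-fed rats, whose mannitol-perfused and non-perfused hearts share no array with the sucrose hearts, 1556 genes were called (8.49%). Chow arrays of both groups all lay in row 1, whereas the sucrose mannitol arrays other than replicate 1 were in row 2. Diet and row therefore cannot be told apart where the sucrose and chow responses are set against each other. The test of the diet interaction called none of 18333 genes (0%; 1131 at an unadjusted p under 0.05; 1 probe without a symbol was called without non-perfused replicate 1). Of the genes called in sucrose hearts, 658 also rose and 369 also fell in chow hearts, none was called in opposite directions, and 93.4% had the same sign. The same-sign share of all tested genes was not counted. Over all of them the differences in sucrose and chow hearts had a Pearson correlation of 0.703. Fos differed by 6.83 in sucrose and 6.05 in chow hearts, Atf3 by 5.96 and 6.5, Hbb by -8.67 and -7.59, and Npy by -4.63 and -4.18. Another 1027 genes were called in sucrose and not in chow hearts, and the interaction was not called for any of them, so no difference between the diets was shown. Rasd1 differed by 4.58 and 3.33 (interaction adjusted p = 0.551), Mrc1 by 1.55 and 0.34 (interaction adjusted p = 0.754), Pdk4 by 1.14 and 1.63 (0.869) and Angptl4 by 2.46 and 3.88 (0.812).

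The smallest interaction p-values with a symbol were those of Ctf1, Twnk, Siglec5, Ceacam9 and Rpl23, with adjusted p from 0.337 to 0.458. Ctf1 differed by -0.51 in sucrose and 0.14 in chow hearts (interaction -0.65, SE 0.13). Twnk, the mitochondrial DNA helicase, differed by -0.32 and 0.22, and Rpl23 by -0.28 and 0.18. The sucrose calls of Siglec5 (1.38) and Rpl23 were lost in 16 of 24 and 10 of 25 alternative settings. That of Rpl23 was lost, among others, without mannitol replicate 1, 4 or 5 or non-perfused replicate 5. That of Siglec5 was lost without mannitol replicate 1, 2, 3 or 5 or non-perfused replicate 2, 3 or 5. The ribosomal list had a median of -0.21 in sucrose and -0.05 in chow hearts, and complex V -0.21 in sucrose and 0.02 in chow hearts. These differences were not tested, and diet and row cannot be told apart in them.

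**Figure D5:**
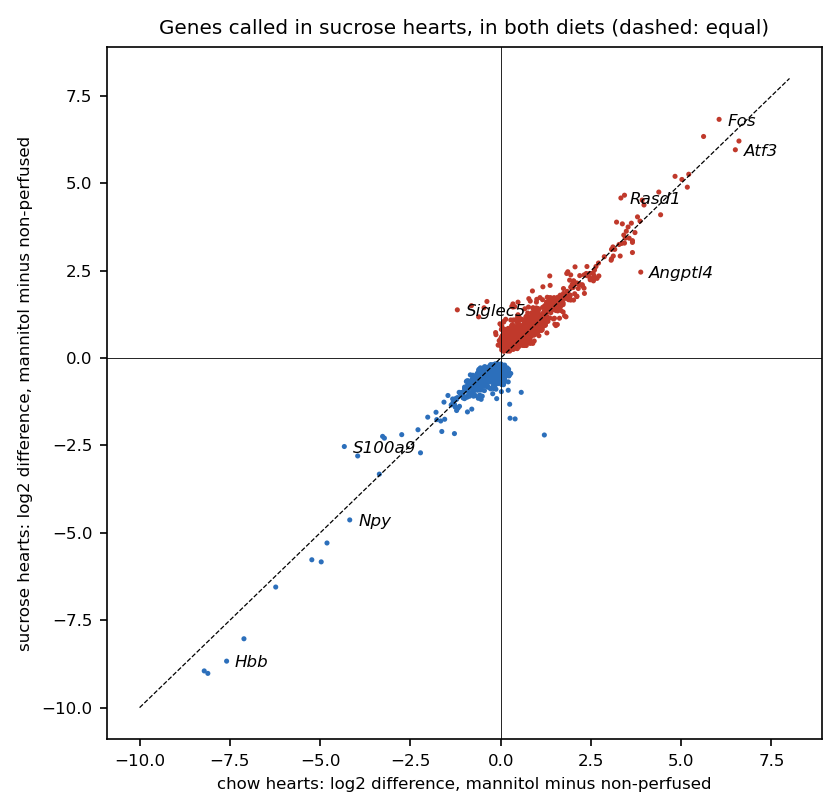
Log2 difference, mannitol-perfused minus non-perfused, in chow hearts (x axis) and in sucrose hearts (y axis) for the genes called in sucrose hearts, red where higher and blue where lower, with equality dashed. Most points lie near the dashed line, with Fos at 6.83 in sucrose and 6.05 in chow hearts, while Rasd1 lies above it and Angptl4 below it.

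Set directly against sucrose hearts perfused with glucose, the mannitol-perfused hearts differed in 1 of 18333 genes (0.00545%; 928 at an unadjusted p under 0.05): Txnip. Its levels were 3.13, 2.83, 2.99, 2.5 and 2.69 with mannitol and 4.22, 4.18, 3.46, 4.19 and 4.4 with glucose, a log2 difference of -1.26 (SE 0.19, adjusted p = 0.00938), and the groups did not overlap. The difference kept its size, between -1.42 and -1.18, in all settings run. Its adjusted p was 0.0502 to 0.0702 when mannitol replicate 5 or glucose replicate 1, 2, 4 or 5 was left out. Pdk4, Angptl4, Irs2 and Slc2a3 did not pass this test (-0.31, -0.93, 0.08 and 0.03, each with an adjusted p of 0.997 or above). The 5 glucose arrays all lay in row 2 of their slides.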

How the data were processed

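Total RNA of left ventricles was labelled with Cy3 and hybridised to one-colour Agilent arrays, per the labels' protocols. The scanner files hold spot intensity; the deposited intensity values used here are the processed signals, background-subtracted by Feature Extraction (11.0.1.1 per the file headers, 10.3 per the submitters' processing notes). The authors' deposited series table holds log2 values, which correlated at 0.9984 or more with the log2 background-subtracted signal of the same array, and its normalization is not given in the sources used here.

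Intensities were taken to log2, spots of a probe were averaged (control and outlier spots left out), and each array's 75th percentile was subtracted. Of 30367 probes 18355 (60.4%) carried a symbol, by a match of the probe's accession to RefSeq transcripts. Probes without a match were tested and left unnamed. A gene was read by its brightest probe. Genes detected well above background on 4 or more arrays of any 5-array group were fitted with 6 group means over all 30 arrays (limma 3.58.1, R 4.3.3, lmFit and eBayes, 2-sided, Benjamini-Hochberg over 18333 genes, threshold 0.05). A probe at background on every array of a group has only a bound there: the fold sets the brighter group's mean against the lowest signal well above background on each dim array or the probe's own, whichever was higher.

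Genes were named by rule: the 15 largest rises and 15 largest falls without overlap, up to 6 called and 3 brightest uncalled members of each of 79 lists, genes given in advance, the smallest p-values, and those of the diet and glucose tests; a few genes that met the rule are not reported here. The members and lists were chosen with earlier results of these data known. Promoters are from RefSeq (GRCr8). Alternatives covered normalization, background correction, the deposited values, filters, probe averaging, slide and replicate blocks, the samples fitted, eBayes options, array weights and leaving out arrays; leaving out the arrays of high control spread was added after seeing the data.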

Additional observations from a re-analysis of the deposited data

Results flagged for a closer look

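Of 372 sets of 5 arrays (each gene named here, in each sucrose group), 16 held 1 array far from the rest by Dixon's test (4.3%), a rate near the 1 in 20 that chance gives. Among the mannitol-perfused hearts, replicate 5 stood high for Klf12 (-0.60, others -4.14 to -3.35) and Sesn2 (0.17, others -2.92 to -2.11). Replicate 1, alone on its slide, stood low for Hk2 (-1.38, others -0.83 to -0.77) and for Cd3d (-0.71, others -0.21 to -0.08). Cxcl1 was high in replicate 2 (1.99, others 1.18 to 1.41) and Ctf1 in replicate 3 (-2.47, others -2.63 to -2.59).

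Among the non-perfused hearts, replicate 1 stood apart for 5 genes: high for Ciart (-1.43, others -6.41 to -5.34), Per2 (-1.19, others -3.83 to -3.35) and C1qb (3.18, others 2.47 to 2.67), and low for Ucp3 (-0.43, others 1.07 to 1.43) and the transferrin receptor Tfrc (1.02, others 1.88 to 2.2). Replicate 3 stood high for Cd79b (-4.58, others -5.39 to -5.28) and low for Cryab (8.89, others 9.17 to 9.2). Nr4a3 was high in replicate 4 (-2.03, others -6.08 to -5.41), as was Cma1 (-0.90, others -1.44 to -1.31), and Slc2a3 was high in replicate 5 (-3.0, others -5.55 to -4.94).

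For 5 genes every mannitol array of sucrose hearts lay on one side of its non-perfused mean and every mannitol array of chow hearts on the other side. Their interactions, sucrose minus chow on the log2 scale, were -0.65 for Ctf1, -0.54 for Twnk, 2.58 for Siglec5, -0.50 for Ceacam9 and -0.46 for Rpl23, and limma's test called none of them (adjusted p from 0.337 to 0.458). These genes were named for the smallest interaction p-values.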

How the results depend on the processing

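Against 2054 called genes (1014 higher, 1040 lower), normexp background correction gave 994 (567 and 427), the authors' deposited values 412 (367 and 45), a fit of only the 2 groups compared 1088 (676 and 412), the fit without the 4 arrays of noisy control spots 1270 (694 and 576), and that without the array alone on its slide as well 1034 (601 and 433). Of the 412, 408 were also called in the values used here. Quantile normalization gave 1781, no filter 1651, and the slide as a fixed or random block 2440 or 2572. Leaving out 1 array gave 1610 to 1888 called genes, 835 to 979 higher and 775 to 948 lower. The replicate numbers did not pair the arrays (correlations of same-numbered deviations from -0.08 to 0.07, 1 of 5 mannitol arrays closest to its own number), and with the replicate block 1898 genes were called, and 0 between mannitol and glucose. The diet interaction called 0 to 1 genes when 1 array was left out, 1 without non-perfused replicate 1. Mannitol minus glucose called 0 to 2 genes when 1 array was left out. It called 2 with the slide as a fixed or random block, with array weights or without the 4 arrays of high spread. It called 0 with the authors' deposited values, with only the groups compared, and without those 4 and the array alone on its slide. No named gene changed sign with a call. With the authors' deposited values 27 of 129 called genes named here lost their call. Gja5, Lyve1, Maf, Cx3cr1, Cma1, Fcmr, Ctf1, Nfe2l2 and Areg were among them. With only the groups compared 14 of 133 lost their call, Angptl4 and Cd79b among them. The cause of these changes was not tested; fits of fewer arrays have fewer degrees of freedom. Signal near background limits dim genes such as Cd79b, S100a8, Clec1b, Egr4 and Areg, whose differences are bounds or rest on few detected arrays. Sizes also moved with the setting where calls were kept. The log2 difference ran from 2.86 to 5.26 for Egr2, from 0.53 to 1.67 for Mrc1 and from -5.03 to -3.0 for Npy.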
